A study of Mus musculus with 6 samples.

Results

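The insulin-like growth factor (IGF) system was followed in the cerebral cortex of mice 10 days after microglia depletion. It was taken as the 10 genes Igf1, Igf2, Igf1r, Igf2r, Igfbp2, Igfbp3, Igfbp4, Igfbp5, Igfbp6 and Igfbp7, found by symbol among the 23366 genes of the table. All 10 were present and passed the filter on low values. RNA from 3 depleted mice (A4, A5 and A6) was compared with RNA from 3 control mice (A1, A2 and A3), with 1 poly(A) library per mouse. All 6 mice were on a C57BL/6 background and, per the study's methods, carried CX3CR1-CreERT2, in which the Cx3cr1 promoter drives a Cre recombinase that tamoxifen switches on. The depleted mice carried iDTR as well, a Cre-dependent diphtheria toxin receptor. Both genotypes received tamoxifen, and diphtheria toxin was injected to kill the cells that had the receptor. Whether the control mice also received toxin is not given in the sources used here, and toxin and depletion therefore cannot be told apart. The mice were adult and matched for age and sex per the study, and their exact age is not given in the sources used here. Per the study the RNA came from frontal cortex. The Cx3cr1 promoter is active in other myeloid cells besides microglia, and per the study microglia have repopulated the brain by this time, so the comparison is of a tissue that lost microglia and regained them, not of a tissue without them.

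IGF1 and IGF2 are small secreted hormones related to insulin. Both act mainly through the receptor tyrosine kinase IGF1R, while IGF2R, which is also the cation-independent mannose-6-phosphate receptor, takes up IGF2 and carries it to lysosomes. The IGF-binding proteins hold the ligands outside the cell, prolong their life and limit or direct their access to the receptor. In the adult brain Igf2 RNA is known mainly from choroid plexus, meninges and vessels, Igf1 RNA from some neurons and from activated microglia, and Igfbp2 RNA from astrocytes, choroid plexus and meninges. The question the design puts to these genes is whether cortical tissue that lost its microglia holds more or less of the RNA of this growth factor system.

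The table gives FPKM, fragments scaled to transcript length and library size, so levels of different genes may be set side by side. The log2(FPKM + 1) values of 14385 genes, those averaging 0.5 FPKM or more, entered a limma fit, and a gene passed at an adjusted p-value under 0.1. Among all genes tested, 0.0278% passed it, 10.5% had an unadjusted p-value under 0.05, and in 17.6% all 3 depleted mice lay above or all below the control mice. None of the 10 genes of the IGF system passed the threshold. At an unadjusted p-value under 0.05 there were 2 of them, Igf2 and Igfbp2, both lower in depleted mice, the direction of 5.74% of all genes tested. The groups did not overlap in 3 of the 10, lower in Igf2 and Igfbp2 and higher in Igfbp3, where the background is 9.38% lower and 8.21% higher. With counts this small nothing particular to the family is read from them. The median log2 fold change of the 10 genes was -0.014, beside -0.0085 for all genes tested.

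Some libraries stood apart. Summed over 8 interferon-stimulated genes, A4 had 379 FPKM, the other depleted mice 69.3 and 66.0, and the control mice from 21.3 to 32.8; all 8 genes were higher in depleted mice, with a median log2 fold change of 1.95 (1.11 without A4), up to 2.30 for Ifit3. Control mouse A3 had 1190.8 FPKM of Gh, the pituitary growth hormone, against at most 10.8 in any other mouse. Xist was at 4.74 FPKM in A3 and from 30.9 to 46.7 in the others, and the Y-linked Ddx3y, Eif2s3y, Kdm5d and Uty summed to 5.56 FPKM in A4 and to no more than 0.16 elsewhere. The fragments behind each library are not given with FPKM values. Between 5834 and 6033 genes were listed at 0 in control mice, and 5903, 7144 and 6849 in A4, A5 and A6. The range with any 1 mouse left out therefore stands beside the main differences.

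The start regions of the pair of genes that were lower in every depleted mouse are shown first, since both lay among the genes with an unadjusted p-value under 0.05. They are RefSeq windows on build GRCm38.p6, from 250 bases before to 50 bases after a start, read in the direction of transcription; all 10 genes had at least 1 window, 14 in all. Capitals mark matches, on either strand, to the GC box GGGCGG, the E-box CACGTG and a core of the interferon-stimulated response element, GAAA followed after any 2 bases by GAAA again. Igf2 has 4 such windows, and Igfbp2 has 2, of which those with a match are printed, and the files do not say which start a read came from.
Igf2 window 3, chr7:142658755-142659054, minus strand: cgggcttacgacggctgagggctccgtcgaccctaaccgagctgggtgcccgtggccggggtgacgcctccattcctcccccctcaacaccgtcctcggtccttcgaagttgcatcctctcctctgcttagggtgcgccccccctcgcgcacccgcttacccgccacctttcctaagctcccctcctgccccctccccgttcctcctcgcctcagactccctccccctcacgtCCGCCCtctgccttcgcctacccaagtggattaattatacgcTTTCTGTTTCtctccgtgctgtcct
Igf2 window 4, chr7:142657447-142657746, minus strand: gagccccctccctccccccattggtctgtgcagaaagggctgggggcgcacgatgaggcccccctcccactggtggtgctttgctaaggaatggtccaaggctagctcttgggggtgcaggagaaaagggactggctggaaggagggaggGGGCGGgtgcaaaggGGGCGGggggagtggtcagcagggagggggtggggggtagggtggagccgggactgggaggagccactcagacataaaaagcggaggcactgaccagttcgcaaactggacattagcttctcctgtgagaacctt
Igfbp2 window 1, chr1:72824230-72824529, plus strand: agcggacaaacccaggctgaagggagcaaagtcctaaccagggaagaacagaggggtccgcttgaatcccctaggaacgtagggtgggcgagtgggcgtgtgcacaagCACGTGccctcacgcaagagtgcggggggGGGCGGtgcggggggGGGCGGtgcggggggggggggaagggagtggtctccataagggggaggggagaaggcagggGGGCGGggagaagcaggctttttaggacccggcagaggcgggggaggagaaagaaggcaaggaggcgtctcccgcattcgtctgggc
Window 3 of Igf2 has 24 CpG pairs, 1 GC box and 1 match to the interferon element, which begins 25 bases after the start and reads on the opposite strand. Among the 14 windows of the family it is the only one with a match to that element, which 3.44% of all 32851 windows hold. Window 4 has 2 GC boxes, and window 1 of Igfbp2 has 3 GC boxes and 1 E-box. A GC box is found in 35.7% of all windows and an E-box in 7.15%. These matches describe the letters and are not sites of binding.

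In the control cortex 4 of the 6 binding proteins were the most abundant RNAs of the system. Igfbp4 was highest at 38.0 ± 1.61 FPKM (SD, n = 3), followed by Igfbp5 at 35.4 ± 1.40, Igfbp2 at 25.8 ± 1.38, Igfbp6 at 25.4 ± 2.84 and Igf2 at 23.7 ± 0.493 (SD, n = 3 for each). Igfbp7 stood at 9.14 ± 1.18 FPKM, Igf1r at 5.33 ± 0.481, Igf2r at 4.81 ± 0.170, Igfbp3 at 4.77 ± 0.0985 and Igf1 at 1.38 ± 0.257 (SD, n = 3 for each). Control mice overlapped between Igfbp2 and Igfbp6, between Igfbp6 and Igf2, between Igf1r and Igf2r, and between Igf2r and Igfbp3, so the order of these neighbours is not set by the values. In depleted mice Igfbp4 and Igfbp5 overlapped as well, and so did Igf2 and Igfbp7.

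**Figure D1:**
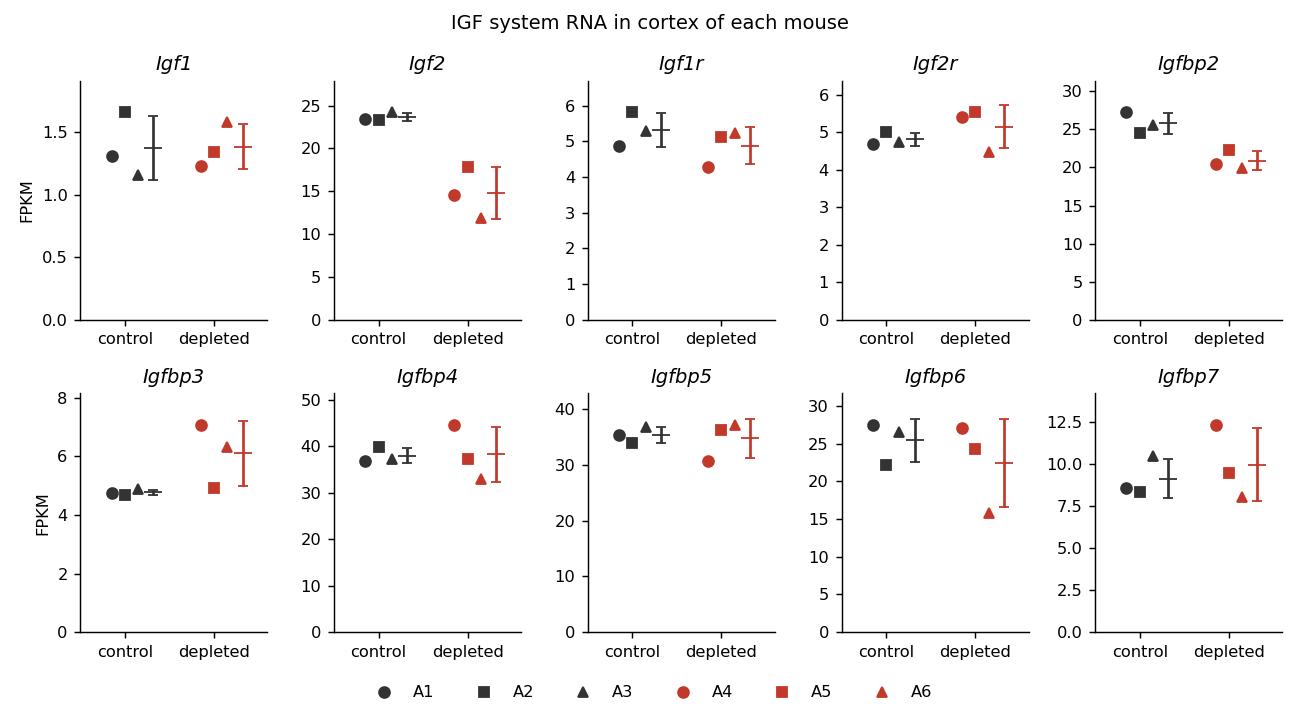
FPKM (vertical axes, each from 0) of the 10 genes in each mouse, with control mice in black and depleted mice in red, and the mean and SD of each group as a bar beside the points. The groups lie apart in Igf2 and Igfbp2, where every depleted mouse is lower, and in Igfbp3, where every depleted mouse is higher; they overlap in the other 7 genes.

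Igf2, the ligand with the larger share of the RNA, was at 23.5, 23.3 and 24.2 FPKM in A1, A2 and A3 (control) against 14.6, 17.9 and 11.9 FPKM in A4, A5 and A6 (depleted). The control mice were close together, and each depleted mouse lay below all of them, A6 farthest and A5 nearest. The depleted mean was 14.8 ± 3.0 FPKM (SD, n = 3), a difference of -37.6% from the control mean. On the log2(FPKM + 1) scale the difference was -0.66 (standard error 0.13, 95% interval from -0.97 to -0.36, unadjusted p = 0.00095 and adjusted p = 0.293 in limma). It ran from -0.80 to -0.52 with 1 mouse left out. Only 78 of the 14385 genes tested, or 0.542%, had a log2 fold change below that of Igf2. Leaving out A5 brought Igf2 past the threshold (adjusted p = 0.0708 in limma, where 0.201% of all genes passed). No other alternative did, and its highest adjusted p was 0.892, without A1.

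The other ligand, Igf1, was far lower and did not separate the groups. It stood at 1.31, 1.66 and 1.16 FPKM in the control mice, beside 1.23, 1.34 and 1.58 FPKM in the depleted mice. Both groups spanned nearly the same values, and their means differed by 0.0069 on the log2 scale, with a 95% interval from -0.34 to 0.35 (adjusted p = 0.991 in limma). The study, which tested raw counts, names Igf1 among the genes lowered in depleted cortex. A lower Igf1 was not seen in these FPKM values, and the reason for the difference was not tested. Igf1 is made by microglia among other cells. The summed level of 17 microglia markers ran from 247.1 to 303.2 FPKM in control and from 299.3 to 479.3 FPKM in depleted mice, with none of them at 0. Of these markers 14 were higher and 3 lower, of which 7 and 2 at an unadjusted p-value under 0.05, from Aif1 at 0.74 to Fcrls at -0.90, and a median log2 fold change of 0.18. Igf1 over that sum was at a log2 ratio of -7.67 ± 0.394 (control) and -8.09 ± 0.446 (depleted; SD, n = 3 each), which overlapped (p = 0.5, exact permutation test, two-sided as all such tests here).

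Together the ligands were mostly Igf2 in either group. Igf2 made up 94.5% ± 1.06 of the summed ligand FPKM in control cortex and 91.2% ± 2.55 in depleted cortex (SD, n = 3 each), where A6 was lowest at 88.3%. The groups did not overlap (exact permutation p = 0.1, the smallest that 3 mice against 3 allow; 0.267 when adjusted over 8 shares and sums).

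Neither receptor separated the groups. Igf1r, the receptor through which both ligands signal, was at 4.86, 5.82 and 5.30 FPKM in control and at 4.28, 5.13 and 5.24 FPKM in the depleted group, giving a log2 fold change of -0.11 (95% interval from -0.38 to 0.17, adjusted p = 0.783 in limma). A4 was lowest, and the others lay in the control range. Igf2r, the receptor that removes IGF2, was at 4.68, 5.0 and 4.74 FPKM in control and at 5.40, 5.53 and 4.48 FPKM in depleted mice. A4 and A5 lay above every control mouse and A6 below, so that the log2 fold change was 0.076 (95% interval from -0.19 to 0.34, adjusted p = 0.844 in limma). The log2 ratio of Igf2 to its signalling receptor Igf1r went from 2.16 ± 0.139 (SD, n = 3) to 1.58 ± 0.349 (SD, n = 3), without overlap (exact permutation p = 0.1, the smallest possible; 0.2 when adjusted over 10 ratios).

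Of the binding proteins, Igfbp2 was the one lower in every depleted mouse. It was at 27.3, 24.5 and 25.6 FPKM in the control group and 20.5, 22.3 and 20.0 FPKM in the depleted group. As for Igf2, A5 lay nearest to the control mice and A6 farthest from them. The log2 fold change was -0.29 (standard error 0.084, 95% interval from -0.48 to -0.10, unadjusted p = 0.0077 and adjusted p = 0.378 in limma), from -0.34 to -0.25 with 1 mouse left out. Among the alternatives its adjusted p lay between 0.222 (without A5) and 0.892 (without A1). Igf2 differed by more than Igfbp2 within the same mice: the log2 ratio of Igf2 to Igfbp2 was -0.12 ± 0.080 in control and -0.52 ± 0.216 in depleted cortex (SD, n = 3 each), without overlap (exact permutation p = 0.1, the smallest possible; 0.2 when adjusted over 10 ratios).

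Igfbp3, which carries IGFs in the circulation in a complex with the acid-labile subunit, was the one higher in every depleted mouse. Control mice had 4.74, 4.69 and 4.88 FPKM, and depleted mice had 7.09, 4.92 and 6.31 FPKM. A4 and A6 lay well above the control mice, while A5 exceeded the highest control mouse by less than the spread among the control mice. The log2 fold change was 0.29 (standard error 0.14, 95% interval from -0.020 to 0.60, unadjusted p = 0.0633 and adjusted p = 0.498 in limma), from 0.19 to 0.41 with 1 mouse left out. Its neighbour in the genome, Igfbp1, is described with the other genes of the pathway.

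The most abundant binding proteins did not separate the groups. Igfbp4, whose hold on IGFs is released by the protease pregnancy-associated plasma protein A, was at 36.9, 39.8 and 37.2 FPKM in control and at 44.7, 37.3 and 32.99 FPKM in depleted mice. A4 lay above and A6 below every control mouse, and the log2 fold change of 0.0028 (95% interval from -0.25 to 0.26) turned negative under 5 of 14 alternatives, without A4 to -0.11. Igfbp5, which binds to extracellular matrix and is the neighbour of Igfbp2 on chromosome 1, was at 35.4, 34.0 and 36.8 FPKM in control and at 30.8, 36.3 and 37.3 FPKM in depleted mice. Only A4 lay below the control mice, and the log2 fold change was -0.030 (95% interval from -0.24 to 0.18), or 0.053 without A4. The adjusted p-values of Igfbp4 and Igfbp5 were 0.994 and 0.930 in limma.

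Igfbp6, which prefers IGF2 over IGF1, was at 27.5, 22.2 and 26.6 FPKM in control and at 27.1, 24.3 and 15.9 FPKM in depleted mice. A single mouse, A6, lay below the others, and its log2 fold change of -0.20 (95% interval from -0.62 to 0.21, adjusted p = 0.708 in limma) was 0.015 without A6. Igfbp7, which binds IGFs weakly and is enriched in vessel cells, was at 8.57, 8.35 and 10.5 FPKM in control and at 12.4, 9.47 and 8.06 FPKM in depleted mice. Here A4 was highest and A6 lowest, and the log2 fold change of 0.10 (95% interval from -0.26 to 0.46, adjusted p = 0.848 in limma) was -0.051 without A4. A4 was the highest or the lowest of the 6 mice in Igfbp3, Igfbp4, Igfbp5 and Igfbp7, and in Igfbp2, Igfbp4, Igfbp6 and Igfbp7, as in Igf2, the lowest value was that of A6.

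**Figure D2:**
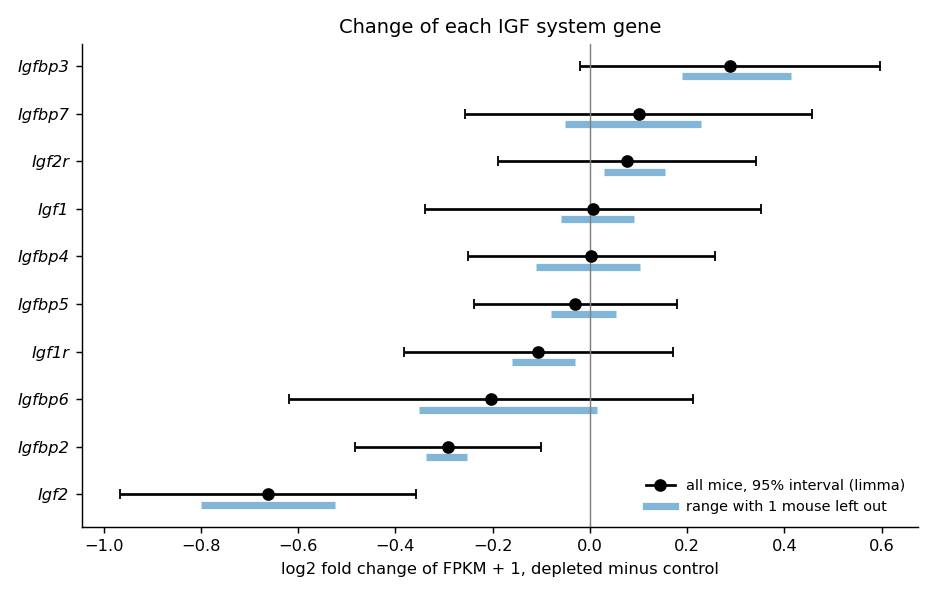
Log2 fold change of FPKM + 1, depleted minus control, for the 10 genes, with the 95% interval from limma (black) and the range with 1 mouse left out (blue). The interval lies below 0 for Igf2 and Igfbp2 and includes 0 for the other 8, and the blue range crosses 0 for Igf1, Igfbp4, Igfbp5, Igfbp6 and Igfbp7.

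As a pool, the 6 binding proteins summed to 138.5 ± 4.32 FPKM in control and 132.5 ± 11.2 FPKM in depleted cortex (SD, n = 3 each), with a difference below the spread of the depleted group (exact permutation p = 0.7). Within the pool the share of Igfbp2 was 18.6% ± 0.694 in control and 15.8% ± 1.28 in depleted cortex (SD, n = 3 each). The share of Igfbp3 was 3.44% ± 0.0675 (SD, n = 3) and 4.63% ± 0.848 (SD, n = 3). Both shares separated the groups (exact permutation p = 0.1, the smallest possible, and 0.267 when adjusted over 8 shares and sums). The shares of Igfbp4, Igfbp5, Igfbp6 and Igfbp7 overlapped between the groups.

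Cells that a cortical dissection holds in small and variable numbers were looked at beside Igf2 and Igfbp2. In bulk tissue, fewer cells of a type and less RNA per cell cannot be told apart. Of 15 choroid plexus epithelium markers, 10 were tested and all 10 were lower in depleted mice, with a median log2 fold change of -0.42, from Sostdc1 at -0.18 to Ttr, the thyroxine carrier of the choroid plexus, at -1.91. At an unadjusted p-value under 0.05 there were 5 of the 10, and in 3 the groups did not overlap. The 15 genes summed to between 245.3 and 422.4 FPKM in control mice and between 123.6 and 139.7 FPKM in depleted mice; 5 of the 15, Kcne2, Slc4a5, Cldn2, F5 and Tmem72, were under the filter, and none was at 0 in every mouse. Ttr was the largest contributor to this sum in the control mice and A4, and Enpp2 in A5 and A6. With any 1 mouse left out the list's median stayed between -0.52 and -0.29, and it was -0.67 with a pseudocount of 0.1.

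Igf2 and the choroid plexus list were both lower in every depleted mouse but the list's sum did not rank the depleted mice as Igf2 did. Among depleted mice Igf2 was lowest in A6 and highest in A5, while the list's sum was lowest in A5 at 123.6 FPKM and highest in A6 at 139.7. By the median over the list's tested genes, relative to the control mean, the order was another, with -0.48 in A6, -0.47 in A5 and -0.36 in A4 on the log2 scale. The sum was mostly Ttr and Enpp2, which ranked the depleted mice differently. Ttr was lowest in A5 at 40.9 FPKM and highest in A4 at 64.3 FPKM. Enpp2 was lowest in A4 at 56.3 FPKM and highest in A5 at 75.15 FPKM, and it overlapped between the groups. The order of the sum is therefore not that of the list as a whole. The log2 ratio of Igf2 to the list's sum was -3.68 ± 0.442 in control and -3.17 ± 0.384 in depleted cortex (SD, n = 3 each), a difference of 0.51 (exact permutation p = 0.3; 0.375 when adjusted over 10 ratios). The list's median of -0.42, unlike its sum, differed by less than the -0.66 of Igf2. This gap depends on the pseudocount: at 0.1 the list's median was -0.67 and Igf2 was at -0.70. For Igfbp2 the same ratio was -3.56 ± 0.476 (SD, n = 3) and -2.65 ± 0.171 (SD, n = 3), higher in every depleted mouse, so that Igfbp2 was lower by less than the list's sum (exact permutation p = 0.1, the smallest possible; 0.2 when adjusted over 10 ratios). Both ratios depend on the Enpp2 in the sum, and ratios without Enpp2 were not computed. The part of choroid plexus tissue in the difference of Igf2 or Igfbp2 was not tested.

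The 18 markers of leptomeningeal and vascular fibroblasts were all tested and none was at 0. They summed to between 1377.0 and 1711.0 FPKM in control and between 1155.6 and 1708.9 FPKM in depleted mice, most of it Ptgds, with the lowest sum in A6. Of these 18 genes 14 were lower and 4 higher, from Aldh1a2 at -0.38 to Mgp at 0.17, with a median of -0.12, or 0.023 without A6, and none had an unadjusted p-value under 0.05. Relative to this sum Igf2 was at a log2 ratio of -5.99 ± 0.172 in control and -6.65 ± 0.209 in depleted cortex (SD, n = 3 each), lower in each (exact permutation p = 0.1, the smallest possible; 0.2 when adjusted over 10 ratios). The same ratio of Igfbp2 overlapped between the groups (p = 0.2 in the exact permutation test). Both ratios mainly follow Ptgds, at 1603.1, 1283.6 and 1343.5 FPKM in control and 1613.3, 1462.4 and 1073.2 FPKM in depleted mice. Ratios without Ptgds were not computed, so neither ratio stands for the other fibroblast markers.

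Astrocytes also express Igfbp2. Of their 12 markers 8 were lower and 4 higher, from Acsbg1 at -0.32 to Gfap, the filament protein of reactive astrocytes, at 1.00, with a median of -0.14, sums from 1297.1 to 1459.8 FPKM in control and from 1295.8 to 1417.4 FPKM in depleted mice, and none at 0. Igfbp2 relative to the astrocyte sum was at -5.73 ± 0.00982 in control and -6.01 ± 0.112 in depleted cortex (SD, n = 3 each) on the log2 scale, lower in each (exact permutation p = 0.1, the smallest possible; 0.2 when adjusted over 10 ratios). That sum includes Gfap, at 88.3, 64.5 and 84.2 FPKM in control and 300.3, 108.5 and 120.1 FPKM in depleted mice. Part of the lower ratio is therefore the higher Gfap, and the ratio without Gfap was not computed. For the vessel-associated Igfbp3 and Igfbp7 the 14 endothelial markers are of interest. They had a median of 0.070, from Tie1 at -0.13 to Pecam1 at 0.34, with 10 higher and 4 lower, and summed to between 90.2 and 101.7 FPKM in control mice and between 102.6 and 106.9 FPKM in depleted mice. Igfbp3 over this sum overlapped between the groups (exact permutation p = 0.3), as did Igfbp7 (exact permutation p = 1). The 11 mural cell markers had a median of -0.12, from Rgs5 at -0.40 to Tagln at 0.23.

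Lists of other cells of the tissue were read as well. All 11 oligodendrocyte markers were lower, 5 of them at an unadjusted p-value under 0.05, with a median of -0.25, from Ugt8a at -0.70 to Cldn11 at -0.071. The median was -0.030 for 12 neuronal markers, from Nefl at -0.28 to Eno2 at 0.089, and 0.035 for 12 markers of GABAergic interneurons, some of which express Igf1, from Sst at -0.29 to Dlx1 at 0.25. For 8 ependymal markers it was -0.10, from Mia at -1.83 to Enkur at 0.26.

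**Figure D3:**
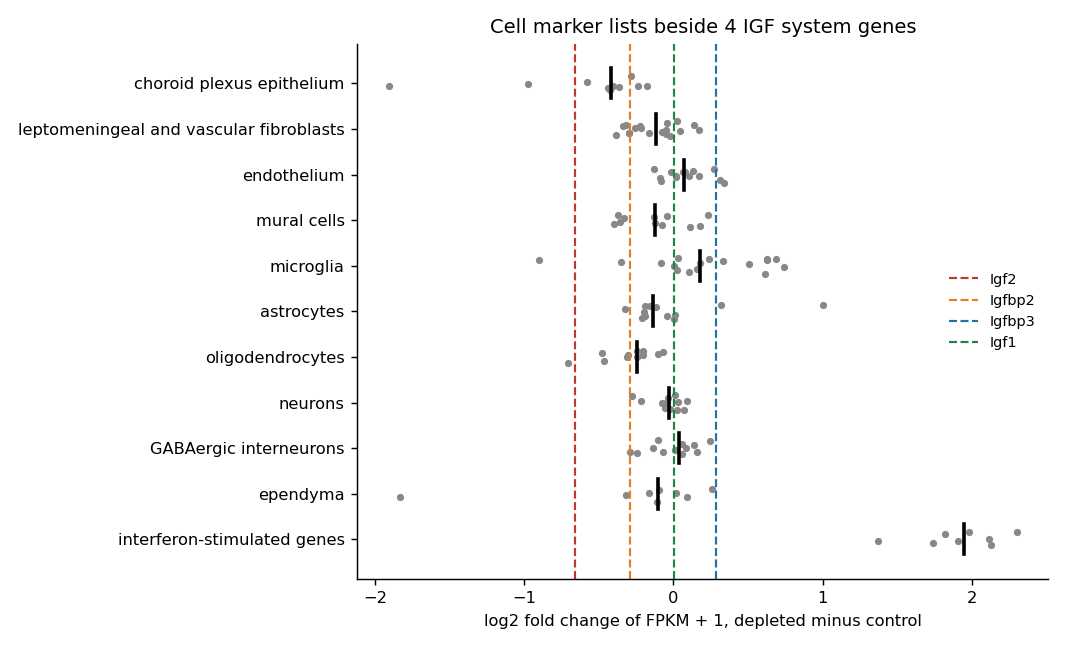
Log2 fold change of FPKM + 1, depleted minus control, of each tested marker gene (grey points) by list, with the list's median (black bar), beside the values of Igf2, Igfbp2, Igfbp3 and Igf1 (dashed lines). Choroid plexus markers lie below 0 throughout, the interferon-stimulated genes far above, and Igf2 lies below the median of every list.

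**Figure D4:**
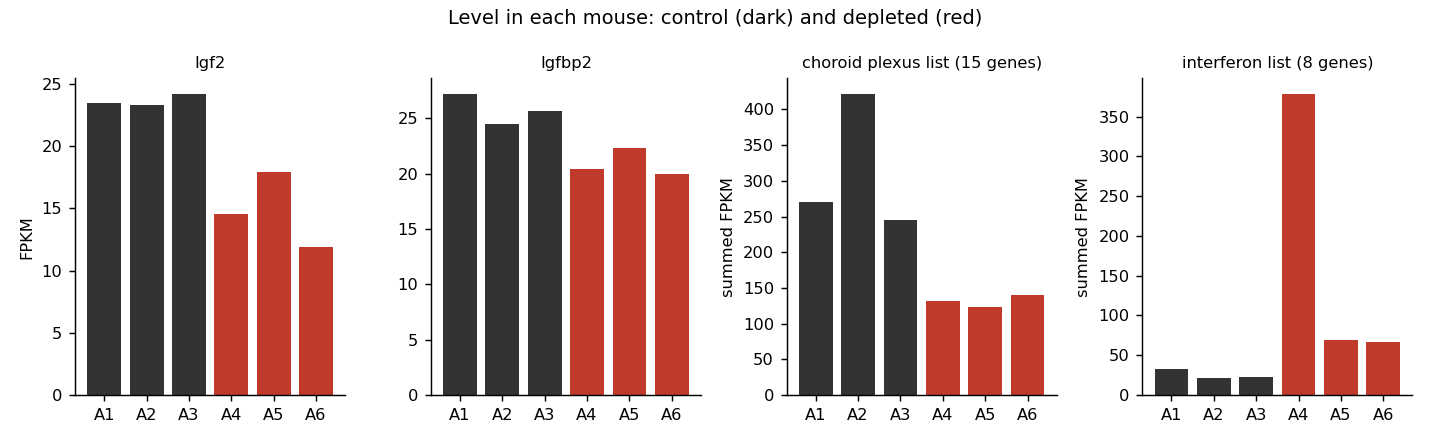
FPKM of Igf2 and Igfbp2 and summed FPKM of the choroid plexus list (15 genes) and the interferon list (8 genes) in each mouse, as bars from 0. Igf2, Igfbp2 and the choroid plexus sum are lower in each depleted mouse than in any control mouse. The interferon sum is higher in each depleted mouse and highest in A4.

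A4, with 379 FPKM of interferon-stimulated RNA, lay between A5 and A6 in both Igf2 and Igfbp2, and without A4 the log2 fold change of Igf2 was -0.66 and that of Igfbp2 -0.28. By the interferon sum A4 was far above A5 and A6, which were close at 69.3 and 66.0 FPKM. By the median over the list's genes, relative to the control mean, A6 lay above A5, so the list does not set their order. Among the depleted mice Igfbp4, Igfbp6 and Igfbp7 were highest in A4, then A5, then A6. Igf1, Igf1r and Igfbp5 had the opposite order. With 3 depleted mice nothing about the interferon response is read from these orders. The part of the interferon response in these values was not tested.

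The other genes of the pathway were taken from fixed lists of 59 genes, of which 58 were in the table and 49 were tested. None passed the threshold. Of the 49, 4 were higher and 2 lower at an unadjusted p-value under 0.05, where 4.79% of all genes tested were higher and 5.74% lower at that level, and the list's median was 0.014. Among the receptor adaptors, Grb2, which links receptors to RAS, was at 57.7, 61.3 and 59.5 FPKM in control and 70.9, 63.0 and 73.3 FPKM in the depleted group, giving a log2 fold change of 0.21. In the PI3K and mTOR branch, the kinase Akt2 went from a mean of 34.4 to 26.0 FPKM (log2 fold change -0.41), lowest in A4 at 19.8 and -0.24 without that mouse, and Rheb, the GTPase that switches on mTOR, from 65.5 to 74.4 FPKM (0.18). The adjusted p-values of Akt2, Grb2 and Rheb were 0.396, 0.432 and 0.463 in limma.

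The growth hormone axis drives Igf1 in liver, and 2 of its 6 genes had an unadjusted p-value under 0.05. Ghr, the growth hormone receptor, was at 2.63, 3.04 and 2.45 FPKM in control and at 3.23, 3.71 and 3.90 FPKM in the depleted group, giving a log2 fold change of 0.32. Socs2, an inhibitor of its signal, was at 5.31, 6.78 and 4.52 FPKM and at 7.04, 7.65 and 6.95 FPKM, a log2 fold change of 0.34. Each depleted mouse lay above each control mouse in both genes, with an adjusted p of 0.451 in limma for each. Without A3, the mouse with high Gh, the log2 fold changes of Ghr and Socs2 were 0.27 and 0.23. The insulin receptor Insr, at 6.32 and 6.58 FPKM on average in the groups, differed by 0.053 on the log2 scale.

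Several genes that set the availability of IGFs were low in cortex, others abundant. The proteases Pappa and Pappa2 did not exceed 0.50 FPKM in a single mouse. Of the proteins that inhibit or accompany them, Stc1 and Stc2 were tested, with log2 fold changes of -0.093 and 0.11, while Htra1, a protease that cuts binding proteins, was abundant at 63.1 and 62.7 FPKM on average in control and depleted mice. Of the proteins that bind Igf2 mRNA only Igf2bp3 passed the filter, at a mean of 0.397 FPKM in control and 0.667 FPKM in depleted mice.

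Igf2 is expressed from the paternal copy of an imprinted region in most tissues, while choroid plexus and leptomeninges are known to use both copies. H19, the noncoding RNA expressed from the maternal copy beside it, was listed at 0.39, 0.32 and 0.08 FPKM in control and at 0.03, 0 and 0 FPKM in depleted mice, under the filter of the test. Of 13 imprinted growth genes 10 were tested, 5 higher and 5 lower, with a median of 0.0014. Only Ndn had an unadjusted p-value under 0.05, at 99.6, 77.6 and 108.0 FPKM in control and 97.6, 165.5 and 180.4 FPKM in depleted mice (log2 fold change 0.60, adjusted p = 0.421 in limma), with A4 inside the control range. The lowest of the list was Mest at -0.31.

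The genes nearest in pattern to each member were sought among the 9443 or 9444 other genes that averaged 5 FPKM or more, by the largest difference over the 6 mice in log2(FPKM + 1) relative to the control mean. For Igf2 they were Gm20605, Sod3, the extracellular superoxide dismutase, and Nptxr, a synaptic pentraxin receptor, with largest differences of 0.20, 0.20 and 0.23. Nptxr was at 80.4, 79.2 and 76.7 FPKM in control and 41.9, 64.6 and 46.0 FPKM in depleted mice. For Igfbp2 the nearest were Phlda3, Fam69b and Gpr62, within 0.042, 0.049 and 0.065. For Igfbp3 they were Denr, Eif3e and Noa1, within 0.056, 0.059 and 0.068. Gm20605 overlaps Lrch4 and Sap25 in the annotation, so its level is uncertain.

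Some reads of these genes could be counted elsewhere. In the GENCODE M21 annotation, 60.3% of the 75-base windows of Igf2 transcripts also occur in the overlapping gene Gm49394, which is not among the symbols of the table. For the other 9 genes at most 0.432% of windows were shared, in Igfbp4. On the opposite strand Igf2r overlaps Airn, listed between 0.14 and 2.17 FPKM, and Igfbp7 overlaps Polr2b. Whether counting used strand is not given in the sources used here, so reads of such partners cannot be told apart.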

How the data were processed

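The authors prepared TruSeq poly(A) libraries from cortical RNA, aligned 75-base paired-end reads with TopHat and quantified known transcripts with RSEM. Per the labels the genome build was mm9; tool versions and annotation are not given in the sources used here. The authors deposited FPKM values per gene and mouse, scaled with TMM factors and rounded to 2 decimals. Raw counts were not used here, so the count test of the study was not repeated. All 6 columns were used.

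FPKM was taken to log2(FPKM + 1), genes with a mean under 0.5 FPKM were left out, and the depleted and control mice were set against each other in limma 3.58.1 (R 4.3.3; eBayes with trend, Benjamini-Hochberg over all genes tested, threshold 0.1), without covariates. The fit was tested on simulated data. Fold changes on this scale understate those of low genes. Sums, shares and ratios were compared by exact permutation tests, for which 3 mice against 3 give no p below 0.1. The limma p-values set each group difference against the spread between these mice, with each gene's variance drawn toward a trend over all genes. Python 3.11.15 and scipy 1.17.1 were used for other steps.

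Genes were named by rule: the 10 members; genes of the pathway and imprinted lists at an unadjusted p under 0.05; the extremes of each marker list; H19 and Ins2; and the 3 genes nearest in pattern. Some genes that this rule names are not reported here. Gh, Xist, the Y-linked genes, Airn, Insr, Htra1, Mest and the further low genes of the pathway lists were added after their values were seen. The members and lists were chosen with earlier results of these data known. RefSeq windows (GRCm38.p6) and GENCODE M21 served for sequences and names only, since the files' build is another; positions of the windows belong to GRCm38.p6.

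As alternatives, the pseudocount was set to 0.1, the filter was dropped or raised to 1 FPKM, libraries were rescaled to TPM or by median of ratios, eBayes was run robustly or without the trend, libraries were weighted (limma array weights), the threshold was lowered to 0.05, and each mouse was left out in turn.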

Additional observations from a re-analysis of the deposited data

How the results depend on the processing

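No paired analysis was possible because the labels number the mice from 1 to 6 without shared numbers. The count of the 10 genes with an adjusted p-value under 0.1 in limma was 0 with all mice, where 2 had an unadjusted p-value under 0.05, and 0 under every alternative except without A5, so that it ran from 0 to 1 with 1 mouse left out; the 1 gene was Igf2. No pathway gene passed under any alternative. Igf2 and Igfbp2 kept an unadjusted p-value under 0.05 in every alternative fit, and Igfbp3 joined them without A5, where 14.3% of all genes had such a p. Igf2, Igfbp2, Igfbp3, Igf1r and Igf2r kept their direction throughout. With 1 mouse left out, the log2 fold change ran from -0.059 to 0.091 for Igf1, from -0.11 to 0.10 for Igfbp4, from -0.081 to 0.053 for Igfbp5, from -0.35 to 0.015 for Igfbp6 and from -0.051 to 0.23 for Igfbp7, and so changed sign. Igfbp4 was at -0.00013 after rescaling to TPM and at -0.038 with array weights, and Igfbp5 at 0.0080 with array weights; the cause was not tested. Rescaling moved the median of all genes by less than 0.01 on the log2 scale. The fragments behind a value are unknown, so the precision of low genes such as Igf1 cannot be given.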

Other observations

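Igfbp1, the neighbour of Igfbp3 and a binding protein known mainly from liver, was listed at 1.56 FPKM in depleted mouse A4, at 0.03 in control mouse A2 and at 0 in the other 4 mice. Igfals, the acid-labile subunit, was listed at 0.48 FPKM in A4, at 0.08 in A3 and at 0 in the other 4. Ins2, the other neighbour of Igf2, was listed at 0.57 FPKM in A5 and at 0 in the other 5 mice, and Ins1 at 0 in all 6. These genes were under the filter of the test, and each of the higher values came from 1 mouse.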
